A study of Homo sapiens with 8 samples.

Results

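OVISE is a cell line derived from a human clear cell carcinoma of the ovary, an epithelial tumour. Cells with wild-type SYK (SYK-WT) stayed untreated or received EGF, epidermal growth factor, at a dose of 50 ng/ml that lasted 24 h, and 2 RNA libraries of each group were sequenced. The comparison described here sets those 2 EGF libraries against the 2 untreated ones, 4 of the 8 libraries of the series. The other 4 came from OVISE cells in which the kinase SYK had been knocked out (SYK-KO), untreated or with the same dose and time of EGF; they enter the estimate of the spread and are set beside single results. Members were all loci with at least 1 FPKM (fragments mapped to a transcript, scaled to its length and to the size of the library) in at least 2 of the 8 libraries, 12112 of 27757 loci in the deposited table, with symbols found from their RefSeq accessions. How library size was measured for this scaling is not known. The SYK-KO cells were isolated as single-cell clones after transfection of a Cas9 nickase and selection with puromycin. The labels leave unsaid how many clones were sequenced, whether cells called SYK-WT had been cloned too, and whether paired libraries came from separate cultures. The p-values below therefore cover the spread from library to library and nothing wider, and that spread may be technical.

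EGF binds EGFR, a receptor tyrosine kinase of the ERBB family, and signals through RAS and ERK, through phosphoinositide 3-kinase and through other routes to the nucleus. A first wave of transcription factors such as FOS and EGR1 is induced within minutes and has usually faded after hours, and it is followed by secreted ligands, proteases, adhesion proteins and inhibitors that dampen the pathway. After a day with EGF, cells therefore show the later part of the response, including feedback and changes of cell state. Epithelial cells commonly respond by loosening contacts, moving and remodelling the matrix around them.

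Changes are given as the difference of group means on the log2(FPKM + 1) scale, which understates the change of genes near 1 FPKM. Beside each is its standard error (SE, n = 2 libraries per group). The SE is that of the limma fit, which pools the spread over all groups and draws on other loci. The untreated SYK-WT pair lay further apart than the other pairs, so the SE can be too small for the comparison with EGF. A gene is called where the adjusted p of the limma fit over all 12112 loci was below 0.05. Values of each library are given in the order of the replicates. The 5 genes taken as markers of the response moved as follows. THBD (thrombomodulin, the thrombin receptor that turns clotting off; chromosome 20, 23026270 to 23030301) stood at 6.32 and 5.3 FPKM untreated and 73.5 and 74.3 with EGF, a change of 3.46 ± 0.092 (adjusted p = 4.39e-06). PLAT, which encodes tissue plasminogen activator, stood at 2.16 and 1.99 FPKM untreated and 17.6 and 17.2 with EGF (2.58 ± 0.092, adjusted p = 1.45e-05), and HBEGF, an ERBB ligand (chromosome 5, 139712428 to 139726188), at 0.955 and 0.632 FPKM untreated and 4.69 and 3.78 with EGF (1.54 ± 0.12, adjusted p = 0.000192). All 3 were higher in both EGF libraries than in either untreated one. VTCN1, a checkpoint protein of the B7 family (chromosome 1, 117686209 to 117753582), stood at 47.8 and 64.6 FPKM untreated and 11.7 and 15.4 with EGF (-1.98 ± 0.16, adjusted p = 0.000293). FGF18, a fibroblast growth factor (chromosome 5, 170846667 to 170884630), stood at 24.5 and 37 FPKM untreated and 6.5 and 8.49 with EGF (-1.88 ± 0.18, adjusted p = 0.00051). Both fell, with no overlap between the groups. Such separation held for all 3238 called loci and adds nothing to the call. Positions are those of the listed loci in hg19.

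Over all tested loci, 3238 were called (26.7%), of which 1777 rose (14.7%) and 1461 fell (12.1%). Most of these changes were small: the median size was 0.43 on the log2 scale, 2045 were under 0.5, and 216 were at least 1 (144 rises and 72 falls). A smaller set of 970 loci was called in the same direction in each of 7 fits: the one used here, that with library medians equalised, that with only the SYK-WT groups, and the 4 that leave out 1 SYK-WT library each. Of these, 592 rose (4.89% of loci tested) and 378 fell (3.12%), with a median size of 0.675. Below, "in all 7 fits" refers to this set, and the number of list members in it is given beside each count. The rises and falls of each list are to be read against the shares of 14.7% and 12.1% over all tested loci. A fit without 1 library has 1 left in that group, so its p-values rest on the spread of the other pairs. For the response to EGF in SYK-WT cells, without SYK-WT replicate 1 the calls numbered 5108 and without replicate 2 3259, and without SYK-WT EGF replicate 1 or 2 they numbered 1255 and 1285. Rises were the more frequent among abundant transcripts, with 200 rises and 50 falls among the 786 loci with a mean of at least 100 FPKM, and falls among scarce ones, with 131 rises and 247 falls among the 1811 loci with a mean under 2 FPKM.

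**Figure D1:**
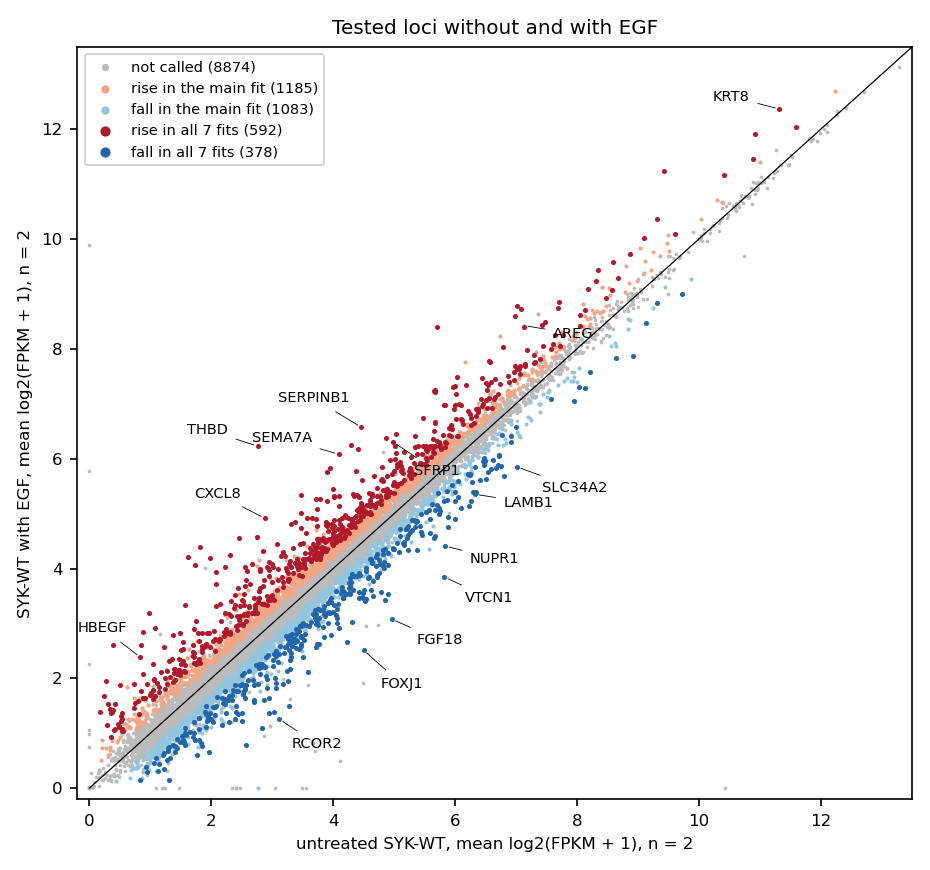
Mean log2(FPKM + 1) of the 2 untreated (x axis) and the 2 EGF-treated (y axis) SYK-WT libraries for 12112 loci, with the line of equality. Colours mark loci not called, called in the fit used here, and called in all 7 fits (592 rises in red, 378 falls in blue); THBD lies furthest above the line among the labelled genes.

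SYK itself stood at 4.91 and 5.3 FPKM untreated and 3.88 and 3.62 with EGF in SYK-WT cells and at 3.11 and 3.43 FPKM untreated and 2.8 and 3.16 FPKM with EGF in SYK-KO cells, where the transcript need not be lost. EGFR, the receptor, was not called: it stood at 36.4 and 50.7 FPKM untreated and 54.3 and 58.1 with EGF (0.38 ± 0.15, adjusted p = 0.108). Without SYK-WT replicate 2 its change was 0.61. The fall of SYK with EGF (-0.36 ± 0.086, adjusted p = 0.0191) was called. SYK lost its call with only the SYK-WT groups in the fit (adjusted p = 0.073), with library quality weights (0.0737), without SYK-WT EGF replicate 1 (0.0722) and without SYK-WT EGF replicate 2 (0.121). Some genes below are listed at a position that also holds other entries. Without the strand of the reads these cannot be told apart where they overlap. This holds for EGFR (with EGFR-AS1), TGFA (with TGFA-IT1), NRG1 (with NRG1-IT1 and NRG1-IT3), IGF2 (with IGF2-AS), BMP6 (with PIP5K1P1 and EEF1E1), PLAU (with C10orf55), TIMP3 (with SYN3) and MMP1 (with WTAPP1 and MMP3). It also holds for ADAM10 (with HSP90AB4P), LAMA5 (with LAMA5-AS1), VCAN (with VCAN-AS1), TNFRSF10B (with RHOBTB2 and TNFRSF10B-AS1), NTN4 (with PGAM1P5), MYCN (with MYCNOS), ETS1 (with ETS1-AS1) and SOX2 (with SOX2-OT and LOC102724604). It also holds for FOXJ1 (with RNF157-AS1 and RNF157), NR1D1 (with THRA), NPAS2 (with NPAS2-AS1), SREBF1 (with several genes), ACSL1 (with SLED1), SHMT1 (with SMCR8), TXNIP (with several genes) and HSD11B1 (with G0S2 and HSD11B1-AS1). It also holds for B4GALT1 (with B4GALT1-AS1), CDKN2B (with CDKN2B-AS1), PCNA (with PCNA-AS1), KRT8 (with KRT18), KRT18 (with KRT8), CD68 (with several genes), CEACAM1 (with several genes) and PKIA (with PKIA-AS1). It also holds for RPS6KA2 (with RPS6KA2-IT1) and UQCC3 (with CSKMT and C11orf98). Copies of near-identical sequence exist for KRT8, KRT18, the metallothioneins, FAM25A, ALPP and the CEACAM and CXCL families, so their values are uncertain where reads could be split between copies. The epithelial list held 15 tested markers of 16 in the table, with summed levels of 8071 and 9147 FPKM untreated and 14270.0 and 14580.0 FPKM with EGF. KRT8, KRT18 and KRT19 made up most of these sums. The other 12 tested markers summed to 2035 and 2365 FPKM untreated and 2385 and 2487 FPKM with EGF. Markers of other cells were scarce. None of 8 endothelial markers reached the filter (summed 0.178 to 0.263 FPKM over the 4 libraries), and among 14 leukocyte markers CD2, CD3D, MS4A1 and NKG7 were listed at 0 in all 4 libraries. Of 13 fibroblast and mesothelial markers COL3A1, DCN, FAP, LUM and PDGFRA were listed at 0. The tested and untested members of the leukocyte list summed to 17.5 and 17.2 FPKM untreated and 37.3 and 40.6 with EGF, and those of the fibroblast and mesothelial list to 26.1 and 37.8 FPKM untreated and 21.9 and 22.6 with EGF. Their part in the changes below was not tested. In bulk RNA, fewer cells of a kind and less RNA per cell cannot be told apart.

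Of the ERBB ligands, which bind EGFR and its relatives, all 5 tested members were called, 3 higher and 2 lower, and 1 of them (HBEGF) in all 7 fits (median 0.389). AREG, encoding amphiregulin, had the highest level per length of the 5 and stood at 228 and 116 FPKM untreated and 398 and 392 with EGF (1.27 ± 0.26, adjusted p = 0.0109). Its untreated libraries differed more from each other than the EGF libraries did. Its change came to 0.79 when SYK-WT replicate 2 was left out and to 1.76 when replicate 1 was. AREG lost its call with only the SYK-WT groups in the fit (adjusted p = 0.0537), without SYK-WT EGF replicate 1 (0.0655) and without SYK-WT EGF replicate 2 (0.0621). The table holds AREG at 2 loci, copies that reads may be split between; the other locus was called higher as well. BTC, encoding betacellulin, stood at 6.04 and 6.21 FPKM untreated and 8.59 and 8.07 with EGF (0.39 ± 0.081, adjusted p = 0.0116). TGFA, encoding transforming growth factor alpha, stood at 90.5 and 96.4 FPKM untreated and 75.1 and 74.9 with EGF (-0.31 ± 0.069, adjusted p = 0.0148), and NRG1, the neuregulin that binds ERBB3 and ERBB4, at 6.25 and 5.88 FPKM untreated and 4.77 and 4.77 with EGF (-0.29 ± 0.072, adjusted p = 0.0224). For BTC, the call ended with only the SYK-WT groups in the fit (adjusted p = 0.0543), without SYK-WT EGF replicate 1 (0.0877) and without SYK-WT EGF replicate 2 (0.051). For NRG1, the call ended with only the SYK-WT groups in the fit (adjusted p = 0.102), with library quality weights (0.0759), without SYK-WT EGF replicate 1 (0.11), without SYK-WT EGF replicate 2 (0.113) and without SYK-KO replicate 1 (0.0507). The adjusted p of TGFA in the same 3 fits ran from 0.0585 to 0.0868. Among the ligands of EGFR itself, AREG, BTC and HBEGF were thus higher with EGF and TGFA lower.

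Of 29 other secreted growth factors tested, 9 rose and 4 fell (4 and 1 in all 7 fits), with a median change of 0.02 against 0.00769 over all tested loci. VGF, a secreted neuropeptide precursor that also marks growth factor signalling, stood at 4.39 and 1.9 FPKM untreated and 17.5 and 17.2 with EGF (2.21 ± 0.28, adjusted p = 0.00152). PDGFA, a chain of platelet-derived growth factor that acts on mesenchymal cells, stood at 14 and 16.5 FPKM untreated and 27.6 and 29.8 with EGF (0.87 ± 0.084, adjusted p = 0.000524). Its relative PDGFC moved the other way, at 11 and 10.4 FPKM untreated and 7.28 and 7.78 with EGF (-0.46 ± 0.085, adjusted p = 0.00775). PDGFC lost its call without SYK-WT EGF replicate 1 (adjusted p = 0.065). ADM2, a peptide of the adrenomedullin family, was higher with EGF in all 7 fits (0.71 ± 0.12), as was a locus that merges IGF2 with INS and INS-IGF2 (1.13 and 1.04 FPKM untreated and 2.79 and 3.14 with EGF). EDN2, encoding endothelin 2, stood at 11.2 and 6.98 FPKM untreated and 5.06 and 5.5 with EGF and fell (-0.65 ± 0.17, adjusted p = 0.0268), by a change of -0.35 without SYK-WT replicate 1. EDN2 lost its call with no filter on low values (adjusted p = 0.0655), with only the SYK-WT groups in the fit (0.0987), without SYK-WT EGF replicate 1 (0.134) and without SYK-WT EGF replicate 2 (0.0961).

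Antagonists of bone morphogenetic proteins (BMPs) and of WNT were among the secreted factors that rose. In the TGF-beta family list 4 of 19 tested members rose and 3 fell (3 and 0 in all 7 fits, median -0.0587). NOG, encoding the BMP antagonist noggin, stood at 1.37 and 1.82 FPKM untreated and 5.72 and 6.11 with EGF (1.42 ± 0.13, adjusted p = 0.000428), and FSTL3, which binds activins, at 32 and 38.1 FPKM untreated and 65.6 and 71.5 with EGF (0.95 ± 0.088, adjusted p = 0.000449). A BMP ligand rose beside them: BMP6 stood at 5.76 and 6.16 FPKM untreated and 13.8 and 15.3 with EGF (1.16 ± 0.076, adjusted p = 0.000109). GDF15, a stress-responsive member of the family with the highest level per length on this list, stood at 659 and 559.7 FPKM untreated and 396 and 463 with EGF and fell (-0.50 ± 0.12, adjusted p = 0.0188). GDF15 lost its call with only the SYK-WT groups in the fit (adjusted p = 0.0582), with library quality weights (0.0648) and without SYK-WT EGF replicate 1 (0.124). Of 14 WNT ligands and antagonists, 7 rose and 2 fell (2 and 1 in all 7 fits, median 0.258). WNT9A stood at 6.05 and 3.28 FPKM untreated and 22.1 and 23.1 with EGF (2.1 ± 0.20, adjusted p = 0.000519), and SFRP1, a secreted antagonist that binds WNT proteins, at 28.9 and 32.3 FPKM untreated and 74.6 and 82 with EGF (1.33 ± 0.077, adjusted p = 6.69e-05). WNT5A fell in all 7 fits (1.17 and 1.09 FPKM untreated and 0.486 and 0.431 with EGF; -0.55 ± 0.086). WNT7B, at 55.2 and 53.2 FPKM untreated and 41 and 43.8 with EGF, fell by less (-0.35 ± 0.066, adjusted p = 0.00823). WNT7B lost its call with only the SYK-WT groups in the fit (adjusted p = 0.0516) and without SYK-WT EGF replicate 1 (0.0738).

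Cytokines were led by neutrophil-attracting chemokines: 7 of 22 tested cytokines and chemokines rose and 2 fell (4 and 0 in all 7 fits, median 0.132). CXCL8, encoding interleukin 8, stood at 8.2 and 4.87 FPKM untreated and 31.9 and 26.5 with EGF (2.03 ± 0.20, adjusted p = 0.000578). IL23A, the p19 subunit of interleukin 23, was scarcer, at 1.59 and 1.1 FPKM untreated and 5.17 and 4.78 with EGF (1.36 ± 0.12, adjusted p = 0.000381). CXCL2 and CXCL3, which share the receptor CXCR2 with CXCL8, changed by 1.09 ± 0.14 and 1.03 ± 0.16, with CXCL2 at 7.35 and 5.94 FPKM untreated and 17.4 and 13.2 with EGF. In all 4 the untreated and EGF libraries did not overlap, which held for all 3238 called loci. TNFSF9, the ligand of the costimulatory receptor 4-1BB, stood at 57.5 and 61.5 FPKM untreated and 39.3 and 48.4 with EGF and fell (-0.44 ± 0.097, adjusted p = 0.0145). TNFSF9 lost its call with only the SYK-WT groups in the fit (adjusted p = 0.0707), with library quality weights (0.066) and without SYK-WT EGF replicate 1 (0.0818).

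Genes of clotting and of its dissolution showed one-sided counts: 11 of 18 tested members rose and 1 fell (7 and 0 in all 7 fits), with a median change of 0.526 and summed levels of 2699 and 2385 FPKM untreated and 5430.4 and 5307 FPKM with EGF. Beside THBD and PLAT, SERPINE2, an inhibitor of thrombin and of plasminogen activators, stood at 15.7 and 13.3 FPKM untreated and 54.5 and 57.7 with EGF (1.89 ± 0.089, adjusted p = 2.76e-05). PLAU, the urokinase plasminogen activator, and its receptor PLAUR rose by 1.82 ± 0.13 and 1.76 ± 0.072. ANXA2 and S100A10, which together form a cell surface complex that binds plasminogen, changed by 0.92 ± 0.074 and 0.56 ± 0.059. Both plasminogen activators, the urokinase receptor, the inhibitor SERPINE2 and the surface complex thus rose together in all 7 fits, whereas F3, the tissue factor that starts clotting, was not called (0.13 ± 0.081). The member that fell was FGB, the fibrinogen beta chain (-0.31 ± 0.092), not in all 7 fits and named after its values were seen.

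Proteases that cut the matrix and their inhibitors rose side by side, with 16 rises and 5 falls among 41 tested (12 and 1 in all 7 fits, median 0.152). SERPINB1, an intracellular inhibitor of neutrophil elastase (chromosome 6, 2832566 to 2842283), stood at 21.4 and 20.6 FPKM untreated and 95.9 and 92.5 with EGF (2.11 ± 0.064, adjusted p = 6.44e-06). PI3, the elastase inhibitor elafin, rose by 2.58 ± 0.16, and SLPI, a further inhibitor of the same enzyme, by 1.06 ± 0.12. TIMP3, a matrix-bound inhibitor of metalloproteinases, rose by 1.4 ± 0.14, and the kallikrein-related peptidases KLK10 and KLK6 by 1.21 ± 0.11 and 0.91 ± 0.12. MMP1, the interstitial collagenase, was near 0 untreated and stood at 0.272 and 0.344 FPKM untreated and 5.75 and 4.54 with EGF. PRSS22, a serine protease outside the list, stood at 125 and 133 FPKM untreated and 435 and 441 with EGF (1.76 ± 0.079, adjusted p = 2.47e-05). ADAM10, a sheddase that releases ectodomains of surface proteins, stood at 85.7 and 88 FPKM untreated and 61 and 61.4 with EGF and fell (-0.50 ± 0.063, adjusted p = 0.00151). MMP11 fell too (6.49 and 11.8 FPKM untreated and 4.25 and 4.42 with EGF; -0.88 ± 0.22, adjusted p = 0.0222), by a change of -0.49 without SYK-WT replicate 2. MMP11 lost its call with no filter on low values (adjusted p = 0.0585), with only the SYK-WT groups in the fit (0.0794), without SYK-WT EGF replicate 1 (0.108) and without SYK-WT EGF replicate 2 (0.0961).

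Of 46 tested matrix and adhesion proteins, 13 rose and 14 fell (9 and 5 in all 7 fits, median -0.0354). Laminin chains differed in direction: LAMA3 and LAMB3, of the anchoring laminin of epithelia, rose by 1.35 ± 0.17 and 1.15 ± 0.10. ITGA6, a subunit of laminin receptors, stood at 3.1 and 4.98 FPKM untreated and 19.7 and 16.4 with EGF (1.94 ± 0.17, adjusted p = 0.000339), ITGB4, its partner in hemidesmosomes, rose by 0.86 ± 0.12, and ITGA2, part of a collagen receptor, stood at 12.3 and 8.36 FPKM untreated and 38.1 and 40.5 with EGF (1.85 ± 0.15, adjusted p = 0.000271). Other chains fell: LAMB1 stood at 85.8 and 72.7 FPKM untreated and 37.1 and 42.8 with EGF (-0.97 ± 0.10, adjusted p = 0.000792) and LAMA5 changed by -0.51 ± 0.060. VCAN, the proteoglycan versican, stood at 106 and 75.5 FPKM untreated and 47.1 and 49.8 with EGF (-0.87 ± 0.14, adjusted p = 0.00379). COL17A1, a transmembrane collagen also found in hemidesmosomes, fell by 0.69 on the log2 scale.

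**Figure D2:**
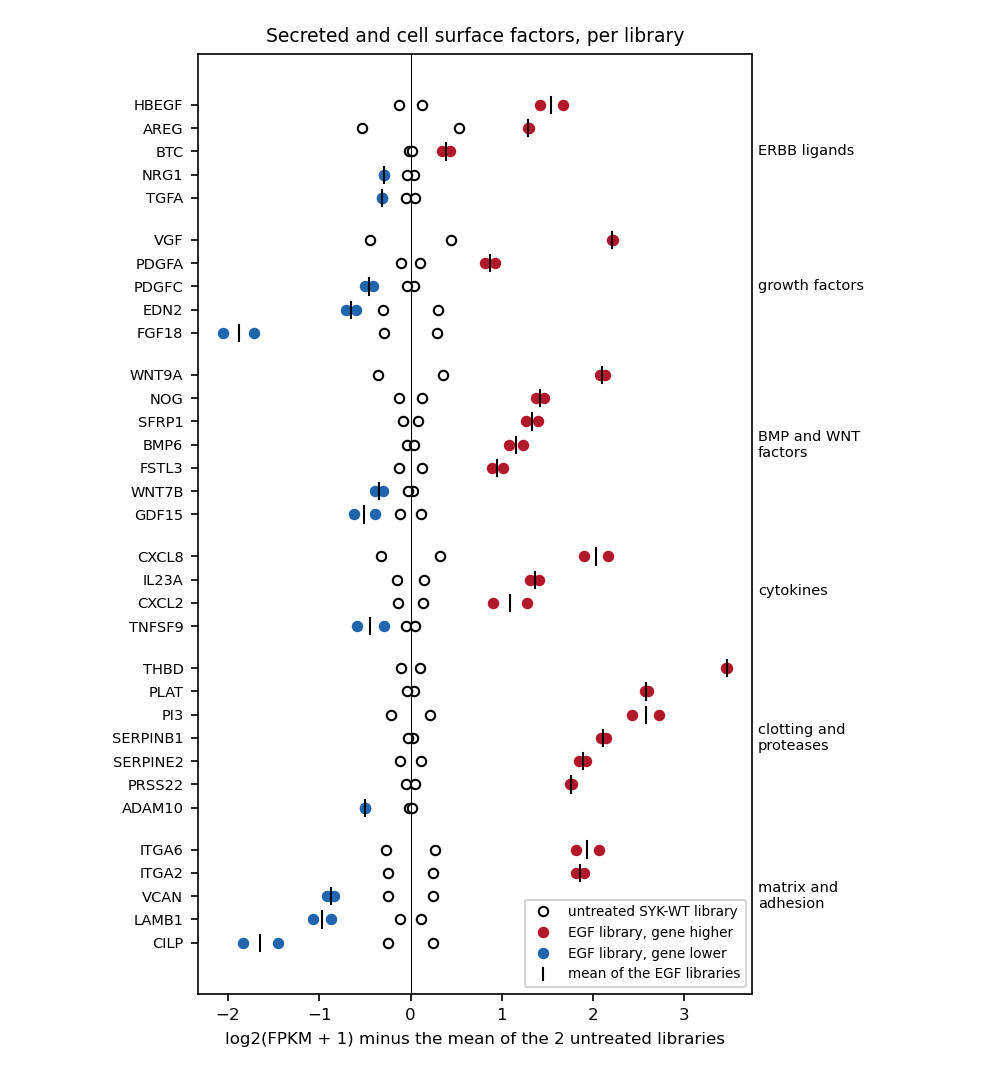
Each gene's value in the 4 SYK-WT libraries on the log2(FPKM + 1) scale, as the difference from the mean of the 2 untreated libraries (x axis). Open circles are untreated libraries, filled circles EGF libraries, and the short bar is the EGF mean; circles of close libraries lie on each other. THBD is furthest to the right, FGF18 and CILP furthest to the left, and the untreated circles of AREG, VGF and WNT9A lie furthest apart.

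Of 25 tested receptor tyrosine kinases, 7 rose and 4 fell (1 and 3 in all 7 fits, median -0.04). MST1R, the receptor of macrophage-stimulating protein, stood at 9.02 and 10.8 FPKM untreated and 16.4 and 16.1 with EGF (0.66 ± 0.089, adjusted p = 0.002). Of the 4 fibroblast growth factor receptors, FGFR1 and FGFR4 were not called. FGFR3 stood at 49.1 and 68.6 FPKM untreated and 25.5 and 26.7 with EGF (-1.13 ± 0.14, adjusted p = 0.00154), and FGFR2 at 2.07 and 2.73 FPKM untreated and 0.536 and 0.50 with EGF (-1.16 ± 0.14, adjusted p = 0.00123). EPHA4, an ephrin receptor, fell in all 7 fits (1.28 and 1.06 FPKM untreated and 0.244 and 0.253 with EGF; -0.80 ± 0.11). Rises of MET (0.31 ± 0.073) and EPHB3 (0.59 ± 0.11) were not held by all 7. For MET, the call ended with only the SYK-WT groups in the fit (adjusted p = 0.0773), with library quality weights (0.0508), without SYK-WT EGF replicate 1 (0.111) and without SYK-WT EGF replicate 2 (0.0801). For EPHB3, the call ended with only the SYK-WT groups in the fit (adjusted p = 0.0548) and without SYK-WT EGF replicate 2 (0.0665).

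Among 47 tested G protein-coupled receptors, 9 rose and 13 fell (4 and 6 in all 7 fits, median -0.0191). ADRA2A, an adrenergic receptor that couples to inhibition of adenylyl cyclase, stood at 10.4 and 7.31 FPKM untreated and 1.54 and 2.11 with EGF (-1.79 ± 0.17, adjusted p = 0.000448). ADORA2B, an adenosine receptor that stimulates the same enzyme, stood at 4.9 and 7.13 FPKM untreated and 15.2 and 14.5 with EGF (1.19 ± 0.13, adjusted p = 0.000921). The prostaglandin E2 receptor PTGER4 rose as well (0.50 ± 0.087). Orphan and adhesion receptors were among the falls: GPRC5B stood at 50.5 and 49.1 FPKM untreated and 21.4 and 25 with EGF (-1.07 ± 0.11, adjusted p = 0.000641) and ADGRG1 at 21.6 and 31.1 FPKM untreated and 14.1 and 14.1 with EGF (-0.84 ± 0.15, adjusted p = 0.00722). SMO, the transducer of hedgehog signals, fell by 0.65 on the log2 scale in all 7 fits.

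Receptors of cytokines, of the TNF family and of TGF-beta gave 15 rises and 8 falls among 45 tested (8 and 4 in all 7 fits, median 0.121). The decoy receptor TNFRSF10D, which binds TRAIL without its death signal, stood at 34.2 and 20.9 FPKM untreated and 57.2 and 56.8 with EGF (1.06 ± 0.18, adjusted p = 0.00574), and the death receptor TNFRSF10B for the same ligand rose by 0.43 ± 0.070. CD40, a costimulatory receptor of the family, rose by 0.73 ± 0.067. Of the TGF-beta receptors, TGFBR1 was not called; TGFBR3, the co-receptor betaglycan, stood at 5.82 and 5.11 FPKM untreated and 2.84 and 3.0 with EGF (-0.72 ± 0.083, adjusted p = 0.00104), and TGFBR2 changed by -0.66 ± 0.084. IL1R1, the interleukin 1 receptor, stood at 2.13 and 2.47 FPKM untreated and 0.966 and 1.06 with EGF (-0.71 ± 0.12, adjusted p = 0.00473). TNFRSF11B, encoding the decoy osteoprotegerin, stood at 67.3 and 32.2 FPKM untreated and 20.8 and 18.4 with EGF (-1.21 ± 0.27, adjusted p = 0.0155). Its untreated libraries lay far apart, and without SYK-WT replicate 1 the change was -0.69. TNFRSF11B lost its call with only the SYK-WT groups in the fit (adjusted p = 0.0704), without SYK-WT EGF replicate 1 (0.0664) and without SYK-WT EGF replicate 2 (0.093).

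Guidance molecules were led by SEMA7A, a membrane-anchored semaphorin that binds integrins, at 16.8 and 15.4 FPKM untreated and 63.4 and 70.2 with EGF (1.99 ± 0.075, adjusted p = 1.64e-05). EFNB1, an ephrin, stood at 7.47 and 6.64 FPKM untreated and 14.4 and 16.2 with EGF (1.02 ± 0.083, adjusted p = 0.000271), and the co-receptor NRP2 at 14.5 and 15.9 FPKM untreated and 24.8 and 27.9 with EGF (0.75 ± 0.078). Other members fell, among them NTN4, a netrin of basement membranes, at 20.8 and 22.2 FPKM untreated and 10 and 10.1 with EGF (-1.03 ± 0.093, adjusted p = 0.000419), and SEMA4D at 13.7 and 14.9 FPKM untreated and 8.05 and 8.5 with EGF (-0.72 ± 0.069). In all, 5 of 39 tested members of the NOTCH, semaphorin, plexin and ephrin list rose and 9 fell (4 and 4 in all 7 fits, median 0.00819). Of 19 tested immune checkpoint ligands 6 rose and 1 fell (median 0.181), and the members in all 7 fits were VTCN1, which fell, and ULBP2, a ligand of the killer cell receptor NKG2D, at 2.17 and 2.4 FPKM untreated and 6.26 and 6.6 with EGF (1.18 ± 0.075, adjusted p = 0.000104).

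Inhibitors that feed back on ERK rose in part. Of 35 tested, 12 rose and 3 fell (8 and 2 in all 7 fits, median 0.183). DUSP5, a nuclear phosphatase of ERK, stood at 64.1 and 62.2 FPKM untreated and 154 and 165 with EGF (1.32 ± 0.066, adjusted p = 3.63e-05). DUSP7, a cytoplasmic one, stood at 4.85 and 4.57 FPKM untreated and 8.8 and 10.5 with EGF (0.89 ± 0.089), and PHLDA1 at 36.8 and 26.6 FPKM untreated and 76.8 and 70.8 with EGF (1.21 ± 0.14, adjusted p = 0.00108). Within the Sprouty family SPRY2 rose by 0.50 ± 0.069 whereas SPRY1 stood at 14.8 and 16.6 FPKM untreated and 6.93 and 8.14 with EGF and fell (-0.97 ± 0.088, adjusted p = 0.000412). CBLB, a ubiquitin ligase of activated receptors, stood at 11.1 and 10.2 FPKM untreated and 5.7 and 6.37 with EGF (-0.73 ± 0.080, adjusted p = 0.000858).

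Part of the transcription factors known to act downstream of ERK were higher with EGF. In the AP-1, EGR, MYC and small MAF list 11 of 29 tested members rose and 2 fell (6 and 2 in all 7 fits, median 0.183). FOSB, an AP-1 subunit of the early response, stood at 6.7 and 4.2 FPKM untreated and 15.6 and 16.4 with EGF (1.43 ± 0.21, adjusted p = 0.00287). FOSL1, the subunit of sustained ERK activity, stood at 61.3 and 59.5 FPKM untreated and 98.9 and 94.1 with EGF (0.67 ± 0.10, adjusted p = 0.00362). The falls were MYCL, at 3.01 and 3.11 FPKM untreated and 1.82 and 1.72 with EGF (-0.55 ± 0.081), and MYCN (-0.66 ± 0.11). In the ETS, KLF and SP list 10 of 31 rose and 2 fell (5 and 0 in all 7 fits, median 0.0856). ETS1 stood at 4.74 and 5.25 FPKM untreated and 15.1 and 14.1 with EGF (1.38 ± 0.075, adjusted p = 5.11e-05) and ELK3, a ternary complex factor, at 10.1 and 13.4 FPKM untreated and 30.3 and 28.6 with EGF (1.27 ± 0.12, adjusted p = 0.00051). KLF4 and KLF6 rose by 0.85 ± 0.11 and 0.75 ± 0.061.

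The SOX, FOX, GATA and RUNX list held 6 rises and 11 falls among 34 tested (3 and 3 in all 7 fits, median -0.0265). SOX9, a factor of progenitor and duct cells, stood at 0.576 and 1.03 FPKM untreated and 5.04 and 5.13 with EGF (1.77 ± 0.12, adjusted p = 0.000143), and SOX2, a factor of pluripotent and neural cells, at 8.15 and 6.38 FPKM untreated and 2.85 and 3.23 with EGF (-1.03 ± 0.12, adjusted p = 0.00104). FOXD1, a factor of kidney stroma, stood at 14.7 and 13.2 FPKM untreated and 53.6 and 52.2 with EGF (1.85 ± 0.089, adjusted p = 2.91e-05), and FOXJ1, the regulator of motile cilia, at 16.1 and 28.9 FPKM untreated and 4.31 and 5.11 with EGF (-1.99 ± 0.23, adjusted p = 0.00108). Within each family 1 member was therefore higher and another lower by at least 1 on the log2 scale. FOXO1, which growth factor signalling through AKT keeps out of the nucleus, fell by 0.49 in all 7 fits. Of 45 tested homeobox factors, 5 rose and 12 fell (3 and 4 in all 7 fits, median -0.0326). HOXD10 stood at 5.64 and 7.57 FPKM untreated and 2.88 and 3.04 with EGF (-0.93 ± 0.12, adjusted p = 0.00175), and HOXD9, its neighbour in the HOXD cluster, at 8.65 and 11.8 FPKM untreated and 5.66 and 5.98 with EGF (-0.70 ± 0.12, adjusted p = 0.00623). MSX1 rose, at 1.94 and 1.75 FPKM untreated and 3.85 and 3.74 with EGF (0.75 ± 0.089, adjusted p = 0.00112).

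Of 37 tested STAT, IRF, NF-kappaB and SMAD factors, 11 rose and 7 fell (3 and 1 in all 7 fits, median -0.0154). SMAD6, which inhibits BMP signalling inside the cell, stood at 4.6 and 5.19 FPKM untreated and 1.64 and 2.7 with EGF (-0.91 ± 0.15, adjusted p = 0.00426). The extracellular antagonist NOG and the intracellular antagonist SMAD6 thus moved in opposite directions. Of 23 nuclear receptors 6 rose and 1 fell (1 and 0 in all 7 fits, median 0.091): the clock component NR1D1 stood at 11.5 and 9.26 FPKM untreated and 16.2 and 17.9 with EGF (0.67 ± 0.11, adjusted p = 0.00415). Among 41 tested bHLH, circadian and sensor factors 6 rose and 5 fell (4 and 1 in all 7 fits, median 0.0217). Those shares, 14.6% and 12.2%, lie close to those over all loci. NPAS2, which partners BMAL1 in the clock, stood at 28.6 and 28.4 FPKM untreated and 41.4 and 43.5 with EGF (0.56 ± 0.066), and SREBF1, the activator of lipid synthesis genes, at 24 and 28.3 FPKM untreated and 16.7 and 17 with EGF (-0.60 ± 0.084, adjusted p = 0.00232).

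**Figure D3:**
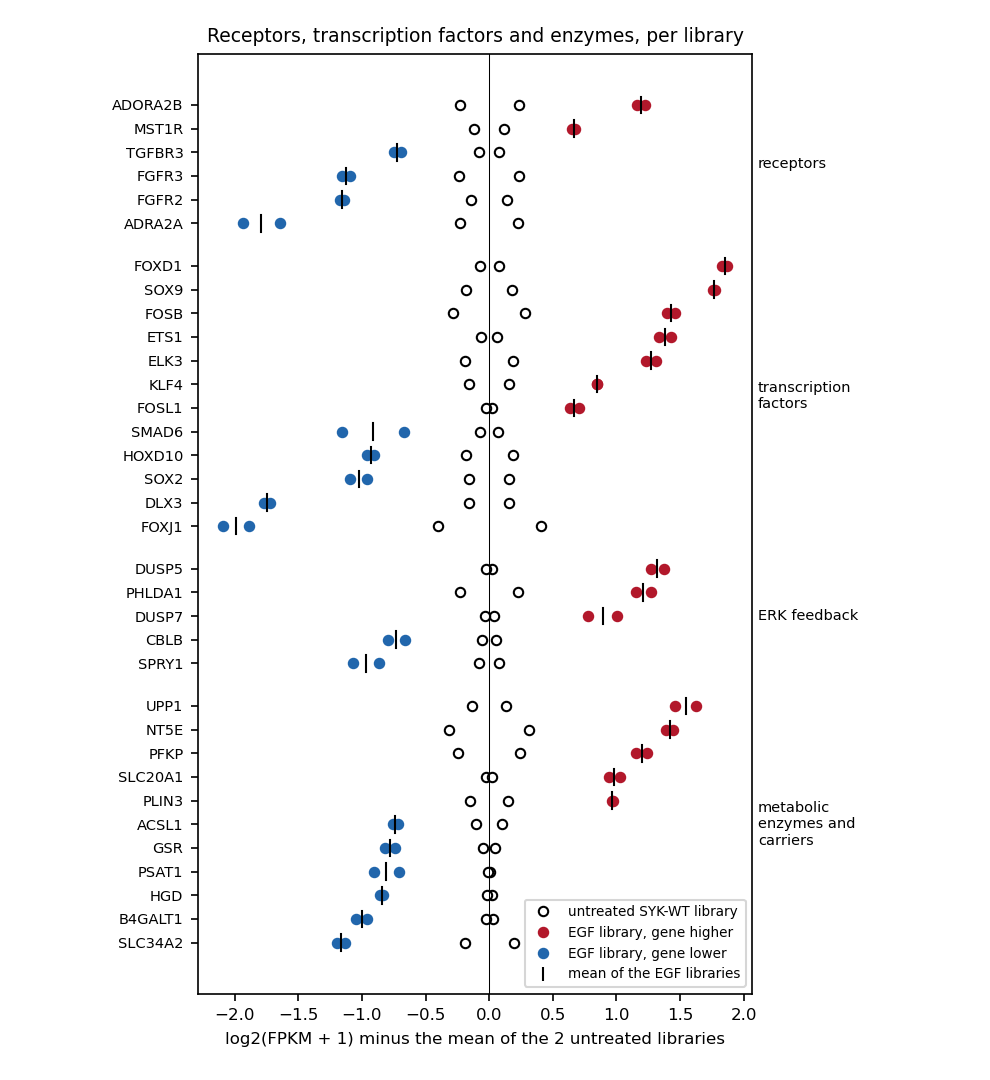
Values of receptors, transcription factors, ERK feedback inhibitors, metabolic enzymes and carriers in the 4 SYK-WT libraries, drawn as for the secreted factors: log2(FPKM + 1) minus the untreated mean (x axis), open circles untreated, filled circles EGF, short bar the EGF mean. Members of 1 family lie on either side of 0: SOX9 right and SOX2 left, FOXD1 right and FOXJ1 left. Among the ERK feedback inhibitors, DUSP5 lies right and SPRY1 left.

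For glycolysis and the pentose phosphate pathway 7 of 42 tested members rose and 4 fell (3 and 1 in all 7 fits, median 0.0384), shares of 16.7% and 9.52% that lie close to those over all loci. The rises in all 7 fits were these: HK2, a hexokinase, stood at 24 and 26.5 FPKM untreated and 42.4 and 44.5 with EGF (0.76 ± 0.075, adjusted p = 0.000546), PFKP, a phosphofructokinase, at 111 and 79 FPKM untreated and 209.6 and 224 with EGF (1.2 ± 0.14, adjusted p = 0.00104), and PFKFB3, which makes the activator of that enzyme, at 12.8 and 14.8 FPKM untreated and 26.8 and 29.1 with EGF (0.97 ± 0.15, adjusted p = 0.00329). G6PC3, which removes the phosphate from glucose 6-phosphate, stood at 21 and 23.8 FPKM untreated and 14.8 and 14.1 with EGF (-0.59 ± 0.077, adjusted p = 0.00164). TKT, transketolase, stood at 344 and 409.6 FPKM untreated and 256 and 275 with EGF and fell (-0.50 ± 0.088, adjusted p = 0.00608). TKT lost its call without SYK-WT EGF replicate 1 (adjusted p = 0.0544).

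Lipid enzymes fell at some steps and rose at others. Of 38 tested enzymes of fatty acid and cholesterol synthesis 5 rose and 8 fell (2 and 1 in all 7 fits, median -0.0488). SCD, the desaturase of saturated fatty acids, stood at 639 and 632 FPKM untreated and 435 and 477 with EGF (-0.48 ± 0.065, adjusted p = 0.00212). LPIN1, a phosphatidate phosphatase, stood at 11 and 10.2 FPKM untreated and 16.4 and 17.7 with EGF (0.64 ± 0.071, adjusted p = 0.000936). Of 34 genes of fatty acid oxidation and lipid storage 8 rose and 5 fell (2 and 2 in all 7 fits, median 0.00569). CPT1A, which admits fatty acids to mitochondria, stood at 8.38 and 8.86 FPKM untreated and 5.49 and 5.66 with EGF (-0.55 ± 0.076, adjusted p = 0.00218), while PLIN3, a lipid droplet coat protein, stood at 56.9 and 70.2 FPKM untreated and 124 and 125 with EGF (0.97 ± 0.098, adjusted p = 0.000609). The acyl-CoA synthetases differed in direction: ACSL5 stood at 44.9 and 35.1 FPKM untreated and 73 and 72.5 with EGF (0.86 ± 0.11) and ACSL1 at 21.4 and 24.8 FPKM untreated and 13.2 and 13.6 with EGF (-0.74 ± 0.091).

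For eicosanoid and phospholipid enzymes 5 of 38 rose and 8 fell (2 and 2 in all 7 fits, median -0.0271). HPGD, which inactivates prostaglandins, stood at 1.56 and 1.7 FPKM untreated and 3.61 and 3.36 with EGF (0.77 ± 0.073, adjusted p = 0.000504). PTGES, which makes prostaglandin E2, stood at 14.9 and 22.9 FPKM untreated and 12.1 and 11.3 with EGF and fell (-0.62 ± 0.17, adjusted p = 0.03), by a change of -0.33 without SYK-WT replicate 2. PTGES lost its call with no filter on low values (adjusted p = 0.0696), with only the SYK-WT groups in the fit (0.0998), without SYK-WT EGF replicate 1 (0.104), without SYK-WT EGF replicate 2 (0.145) and without SYK-KO replicate 1, SYK-KO replicate 2, SYK-KO EGF replicate 1 or SYK-KO EGF replicate 2 (0.0508 to 0.0526). The phospholipases C beta moved apart, with PLCB3 at 20.3 and 22.3 FPKM untreated and 34.3 and 34.6 with EGF (0.67 ± 0.067) and PLCB4 at 37.9 and 34.8 FPKM untreated and 22.3 and 24.3 with EGF (-0.62 ± 0.086).

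Of 45 tested amino acid and one-carbon enzymes 13 rose and 8 fell (7 and 4 in all 7 fits, median 0.0763). GLUD1 and GPT2, which convert glutamate to a citric acid cycle intermediate, rose by 0.61 ± 0.098 and 0.53 ± 0.058. In serine synthesis PSAT1 stood at 104 and 102 FPKM untreated and 62.4 and 54.5 with EGF (-0.81 ± 0.086, adjusted p = 0.000791). SHMT1, the cytosolic serine hydroxymethyltransferase, stood at 8.88 and 10.4 FPKM untreated and 5.42 and 5.41 with EGF (-0.73 ± 0.092, adjusted p = 0.00157). The mitochondrial folate enzymes MTHFD2 and MTHFD1L rose by 0.57 ± 0.080 and 0.49 ± 0.084 in all 7 fits. HGD, of tyrosine breakdown, stood at 43.3 and 42.1 FPKM untreated and 23.6 and 23.1 with EGF (-0.84 ± 0.084, adjusted p = 0.000564). Of 51 polyamine and nucleotide enzymes 13 rose and 6 fell (4 and 1 in all 7 fits, median 0.0618). The 3 largest rises of the list were these: NT5E, the surface enzyme CD73 that makes adenosine, stood at 25.3 and 39.7 FPKM untreated and 88.3 and 84.9 with EGF (1.42 ± 0.17, adjusted p = 0.00114), UPP1, uridine phosphorylase, at 9.07 and 11.1 FPKM untreated and 33 and 29.4 with EGF (1.54 ± 0.096, adjusted p = 9.45e-05), and PNP, purine nucleoside phosphorylase, at 92 and 90.9 FPKM untreated and 153 and 149 with EGF (0.72 ± 0.054, adjusted p = 0.000199). RRM2, the subunit of ribonucleotide reductase made in dividing cells, stood at 68 and 62.7 FPKM untreated and 41.8 and 35.2 with EGF (-0.75 ± 0.091, adjusted p = 0.00128).

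The glutathione, heme and redox list held the most calls among the metabolic lists, with 23 rises and 11 falls among 51 tested (7 and 6 in all 7 fits, median 0.123). Genes of heme breakdown rose, with HMOX1 changed by 1.3 ± 0.091 and the biliverdin reductases BLVRA and BLVRB by 0.63 ± 0.086 and 0.65 ± 0.071, and NQO2, a quinone reductase, by 1.01 ± 0.076. GSR, glutathione reductase, stood at 61.3 and 65.3 FPKM untreated and 35.5 and 37.5 with EGF and fell (-0.78 ± 0.072, adjusted p = 0.000441), as did GSTP1 (-0.72 ± 0.13) and CAT, catalase (-0.45 ± 0.074). TXNIP, the inhibitor of thioredoxin, stood at 114 and 106 FPKM untreated and 50.3 and 50.1 with EGF (-1.12 ± 0.064, adjusted p = 6.36e-05). The metallothioneins, which bind zinc and copper, stood higher. MT1X stood at 4.86 and 7.76 FPKM untreated and 19.5 and 18.5 with EGF (1.48 ± 0.16, adjusted p = 0.000902). MT2A stood at 69.8 and 158 FPKM untreated and 294 and 305 with EGF (1.5 ± 0.30, adjusted p = 0.01), and without SYK-WT replicate 1 the change was 0.92. MT2A lost its call with only the SYK-WT groups in the fit (adjusted p = 0.0546), without SYK-WT EGF replicate 1 (0.0584) and without SYK-WT EGF replicate 2 (0.0626).

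Of 38 tested steroid, retinoid and drug enzymes 7 rose and 8 fell (4 and 3 in all 7 fits, median 0.00859). HSD11B1, which regenerates active glucocorticoid, stood at 0.777 and 1.17 FPKM untreated and 7.34 and 8.89 with EGF (2.21 ± 0.12), HSD3B7, of bile acid synthesis, at 1.88 and 2.63 FPKM untreated and 5.21 and 5.04 with EGF (0.92 ± 0.13, adjusted p = 0.00216), and ALDH3B1 at 19.2 and 26.6 FPKM untreated and 12.7 and 13.5 with EGF (-0.75 ± 0.13, adjusted p = 0.00589). Of 53 tested glycosyltransferases and proteoglycan enzymes 8 rose and 16 fell, but 6 and 5 in all 7 fits (median -0.0646). B4GALT1, which adds galactose to N-glycans, stood at 69 and 66.3 FPKM untreated and 32.3 and 34.3 with EGF (-1.0 ± 0.082, adjusted p = 0.000271). HS3ST1, which makes the antithrombin-binding site of heparan sulfate, stood at 34.9 and 22.9 FPKM untreated and 79 and 86.3 with EGF (1.51 ± 0.18, adjusted p = 0.0011), while NDST1 and SULF2, which set heparan sulfation elsewhere, changed by -0.53 ± 0.086 and -0.41 ± 0.069.

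Among 64 tested solute carriers 11 rose and 18 fell (3 and 8 in all 7 fits, median -0.0287). The phosphate carriers moved apart: SLC20A1 stood at 49.2 and 50.9 FPKM untreated and 97.1 and 103 with EGF (0.98 ± 0.067, adjusted p = 0.000132) and SLC34A2, the sodium phosphate carrier NaPi2b, at 147 and 112 FPKM untreated and 55.6 and 58 with EGF (-1.16 ± 0.11, adjusted p = 0.000531). SLC1A1, a glutamate carrier, stood at 22.3 and 18.9 FPKM untreated and 10.1 and 11.7 with EGF (-0.87 ± 0.13, adjusted p = 0.00361).

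Cell cycle regulators showed the reverse balance to the secreted factors, with 6 rises and 26 falls among 57 tested (1 and 6 in all 7 fits, median -0.252). The rise in all 7 fits was that of CDKN2B, which encodes the inhibitor p15 and stood at 4.64 and 4.15 FPKM untreated and 7.65 and 8.04 with EGF (0.71 ± 0.077, adjusted p = 0.000809). The proliferation marker MKI67 fell by 0.51 on the log2 scale, the replication factor PCNA by 0.46 and the helicase subunit MCM2 by 0.59, all in all 7 fits. E2F1, an activator of replication genes, stood at 11 and 14.6 FPKM untreated and 7.64 and 7.49 with EGF (-0.68 ± 0.12, adjusted p = 0.00541). In 41 of the 57 members SYK-WT replicate 2 was higher than replicate 1, the side away from the EGF libraries for genes that fell, and the summed level was 2067 and 2266 FPKM untreated and 1961 and 1935 FPKM with EGF.

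**Figure D4:**
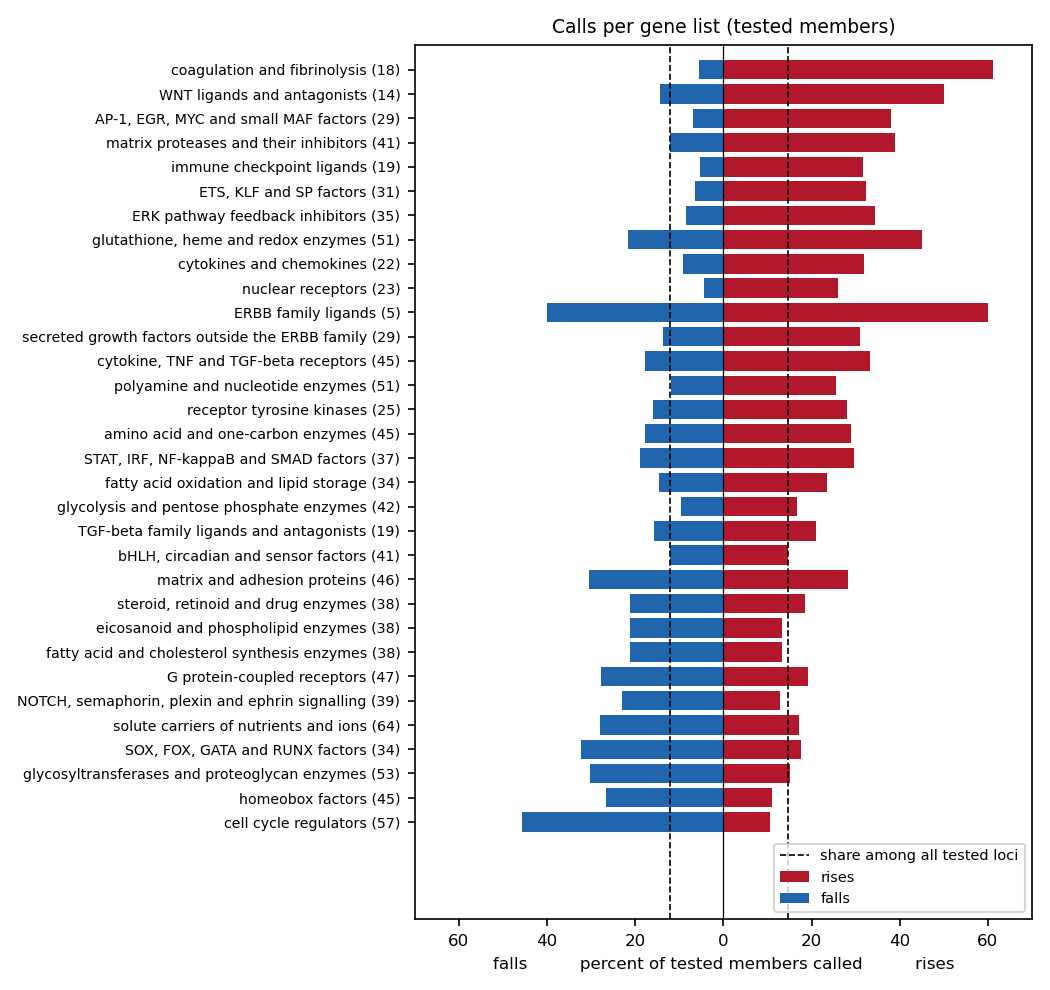
Percent of the tested members of each gene list (number tested in parentheses) that rose (red, right) or fell (blue, left), with dashed lines at the shares over all tested loci, 14.7% and 12.1%; lists of cell type markers are left out. Clotting genes lie at the top with 61.1% rises and 5.56% falls, and cell cycle regulators at the bottom with 10.5% and 45.6%.

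Of the 15 tested epithelial markers 5 rose and 1 fell, with a median of 0.0589, and both EGF libraries lay above both untreated ones in 7 and below both in 4. The rises in all 7 fits were the keratins KRT8, KRT18 and KRT19, while KRT7 was not called (429 and 579.9 FPKM untreated and 523 and 516 with EGF; 0.06 ± 0.12, adjusted p = 0.749). KRT8 stood at 2396 and 2741 FPKM untreated and 5222 and 5372 with EGF (1.05 ± 0.094, adjusted p = 0.000391) and KRT18 at 1920.0 and 1946 FPKM untreated and 3831 and 3927 with EGF (1.0 ± 0.10, adjusted p = 0.00057). CDH1, encoding E-cadherin, stood at 84.7 and 90.8 FPKM untreated and 61.9 and 61.4 with EGF and fell (-0.50 ± 0.097, adjusted p = 0.00862). CDH1 lost its call without SYK-WT EGF replicate 1 (adjusted p = 0.0566) and without SYK-WT EGF replicate 2 (0.0586). The lung and clear cell marker NAPSA was tested and not called (5.12 and 5.37 FPKM untreated and 4.16 and 5.03 with EGF; -0.16 ± 0.12, adjusted p = 0.352). CD68, a lysosomal protein abundant in macrophages, stood at 12.3 and 12.3 FPKM untreated and 31.3 and 34.4 with EGF (1.34 ± 0.070, adjusted p = 3.95e-05). LAPTM5, the other leukocyte marker past the filter, was higher in both EGF libraries than in either untreated one but was not called. The highest value of any leukocyte marker below the filter was 0.374 FPKM. Of the mesothelial markers UPK3B stood at 9.82 and 16 FPKM untreated and 5.07 and 5.3 with EGF (-1.13 ± 0.19, adjusted p = 0.00516) and LRRN4 at 2.71 and 3.51 FPKM untreated and 1.11 and 1.48 with EGF (-0.84 ± 0.13, adjusted p = 0.00338), both lower with EGF, and CALB2 was higher (0.342 and 0.143 FPKM untreated and 1.98 and 1.81 with EGF; 1.22 ± 0.14).

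Outside the lists, adhesion molecules of the carcinoembryonic antigen family rose: CEACAM6 stood at 18.4 and 18.6 FPKM untreated and 70.3 and 80 with EGF (1.96 ± 0.076, adjusted p = 1.64e-05) and CEACAM1 at 1.98 and 1.94 FPKM untreated and 8.78 and 9.54 with EGF (1.78 ± 0.077, adjusted p = 2.31e-05). PKIA, an inhibitor of protein kinase A, stood at 1.07 and 1.12 FPKM untreated and 6.92 and 6.2 with EGF (1.85 ± 0.082, adjusted p = 2.47e-05). RPS6KA2, a kinase activated by ERK, stood at 9.0 and 3.55 FPKM untreated and 21.4 and 24.4 with EGF (1.82 ± 0.30, adjusted p = 0.00477), and MARCHF4, a membrane ubiquitin ligase, at 3.15 and 3.24 FPKM untreated and 14.4 and 14.2 with EGF (1.87 ± 0.10, adjusted p = 5.16e-05). ARL14, a small GTPase of the ARF family, stood at 4.83 and 2.71 FPKM untreated and 17.4 and 13.3 with EGF (1.8 ± 0.23). Each of these rose in all 7 fits.

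Among the falls outside the lists, PTPRR, a phosphatase that acts on ERK, stood at 28.9 and 28.5 FPKM untreated and 10.4 and 10.7 with EGF (-1.36 ± 0.11, adjusted p = 0.000252). RCOR2, a corepressor, stood at 7.0 and 8.4 FPKM untreated and 1.23 and 1.55 with EGF (-1.86 ± 0.13), and ALPP, placental alkaline phosphatase, at 4.24 and 5.75 FPKM untreated and 0.677 and 0.776 with EGF (-1.79 ± 0.12, adjusted p = 0.000143). NUPR1, a stress-induced nuclear protein, stood at 44.1 and 71.4 FPKM untreated and 19.5 and 21 with EGF (-1.43 ± 0.18, adjusted p = 0.00159), and the secretoglobin SCGB1D2 at 6.08 and 7.37 FPKM untreated and 2.4 and 1.83 with EGF (-1.31 ± 0.14, adjusted p = 0.000839). LRRN1 and LIMCH1, at 10.3 and 11.7 FPKM untreated and 3.23 and 3.43 with EGF and 24.4 and 31.4 FPKM untreated and 9.8 and 9.59 with EGF, fell by 1.47 and 1.42 on the log2 scale. These 7 also fell in all 7 fits.

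Promoter sequence was described for the AP-1 letters TGANTCA, read by FOS and JUN proteins, and the cyclic AMP response element TGACGTCA, read by CREB and ATF proteins. Both motifs read the same on either strand apart from the free base N, and neither contains the other. RefSeq promoters (GRCh38.p14, 250 bases before to 50 after a start, 35116 promoters with several for some genes) were matched by symbol to 9458 of 11779 genes with a tested locus of a single symbol. Where a gene had several such loci, the locus with the most positive change set its call. AP-1 letters occurred in 6.9% of 2058 promoters of genes that rose, 4.3% of 1696 promoters of genes that fell, 4.97% of 9943 promoters of tested genes not called and 7.71% of all promoters. For rises in all 7 fits the share was 8.25% of 679, and for falls 6.37% of 487. The letters of the cyclic AMP response element occurred in 2.38%, 1.59% and 3.17% of promoters of rises, falls and genes not called, and in 1.85% of all. Promoters of untested genes held a median of 52.7% G and C, against 66.0%, 64.7% and 65.0% for rises, falls and genes not called. These shares are descriptions without a test, and a match is not a binding site.

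The stretches below show these letters before the start of 6 genes that rose, with 20 bases on either side. AP-1 letters also lay before ACSL1, which fell, and EGFR, which was not called. The cyclic AMP response element also lay before MITF, which fell. Capitals mark the motif.
CXCL8: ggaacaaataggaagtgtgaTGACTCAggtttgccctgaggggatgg
IL23A: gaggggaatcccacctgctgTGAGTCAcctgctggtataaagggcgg
UPP1: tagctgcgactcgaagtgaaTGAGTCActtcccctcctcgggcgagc
AREG: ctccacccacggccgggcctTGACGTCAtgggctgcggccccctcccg
VGF: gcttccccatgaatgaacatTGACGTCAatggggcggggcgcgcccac
CD68: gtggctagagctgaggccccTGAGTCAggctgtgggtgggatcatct
They lie, in this order, at chr4:73740412-73740458 (plus strand), chr12:56338787-56338833 (plus strand), chr7:48088577-48088623 (plus strand), chr4:74445051-74445098 (plus strand), chr7:101165621-101165668 (minus strand) and chr17:7579518-7579564 (plus strand) of GRCh38.p14, with the first base of the motif 137, 77, 107, 65, 79 and 100 bases before the start. All 6 genes were higher with EGF, by the values given above. AP-1 letters in the 250 bases before a start were found for 8 of the 79 named rises that have a listed promoter. They were found for 5 of the 74 named falls, ADGRG1 among them. Named genes on a chromosome left out of this search are counted as lacking the letters, so both counts are minimums. Over promoters, the share in this window was 6.03% for rises, 3.66% for falls, 4.2% for genes not called and 6.57% for all. The counts of named genes take a match at any promoter of a gene, so they are not to be read against these shares of promoters.

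In SYK-KO cells 11.8% of all tested loci were called with EGF, 76.9% of all tested loci had the same sign of change as in SYK-WT cells, and 1211 of the 3238 loci called in SYK-WT cells (37.4%) were called in the same direction. At 95.6% of those 3238 loci the sign of change matched between the genotypes, so a match is common among called loci in general. Of 205 named genes called in SYK-WT cells, 135 were called in the same direction in SYK-KO cells and 0 in the opposite one. The sign matched for 199 of these 205 genes. Most of these genes were chosen for being large in SYK-WT cells, so their shares are descriptions only, as is the smaller change in SYK-KO cells of 182 of the 205. The difference of the 2 responses was called for 1 of the 12112 loci, PLAT, which stood at 3.88 and 3.42 FPKM untreated and 5.69 and 4.84 FPKM with EGF in SYK-KO cells (difference 2.15 ± 0.13, adjusted p = 0.00259), while 1070 loci had an unadjusted p below 0.05. SERPINB1 changed by 1.53 ± 0.064 in SYK-KO cells and SEMA7A by 1.28 ± 0.075, which did not pass the test of the difference (adjusted p = 0.143 and 0.138). MMP1 changed by more in SYK-KO cells (3.82 ± 0.14) than in SYK-WT cells (2.225 ± 0.14). Its difference did not pass that test either (adjusted p = 0.0694). FGFR3 was at 6.43 and 7.29 FPKM untreated and 5.32 and 5.86 FPKM with EGF in SYK-KO cells, below every SYK-WT value, and the difference of its responses had an adjusted p of 0.313.

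The 2 untreated SYK-WT libraries lay further apart than any other pair. The median distance over loci was 0.15 (log2) for this pair and 0.0669 to 0.0828 for the remaining pairs. In the untreated pair 5.33% of loci lay more than 0.5 apart, against 0.594% to 0.694%. Both EGF libraries lay above both untreated libraries in 3944 loci (32.6%) and below both in 3691 (30.5%), so separation alone marks far more loci than the test. All 3238 called loci were separated, and in 2593 of them (80.1%) the gap between the nearest libraries of the groups exceeded the distance between the untreated ones. Among the 8874 loci not called, 49.5% were separated and 16.6% had such a gap. SYK-WT replicate 1 was the nearer of the untreated libraries to the EGF mean in 58.9% of called rises and 68.6% of called falls.

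**Figure D5:**
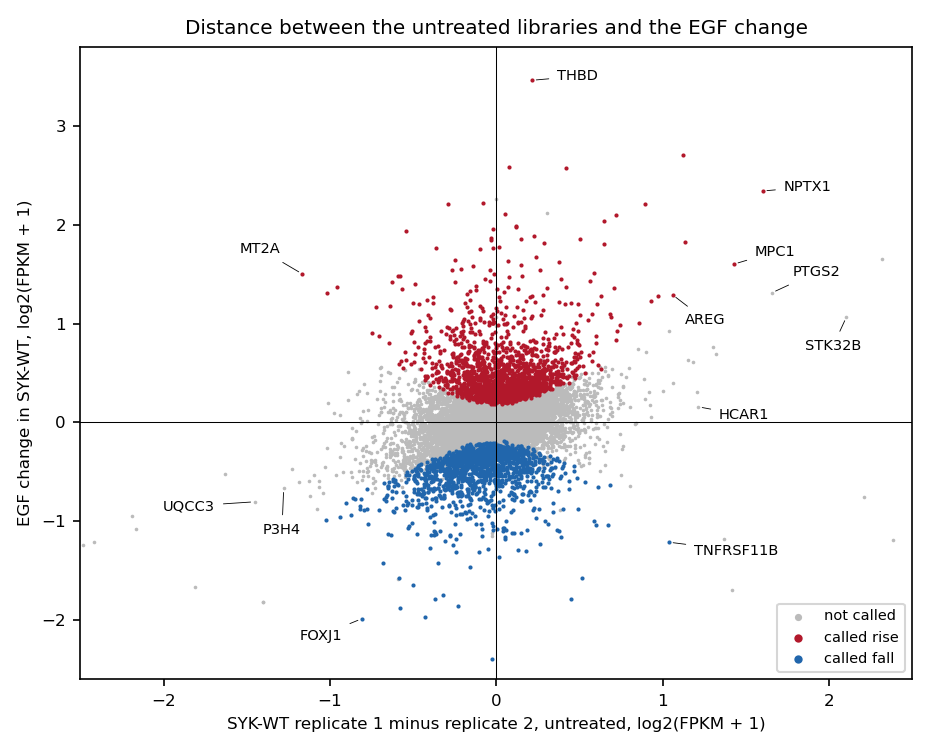
Each of 12112 loci by the difference between the untreated SYK-WT libraries (replicate 1 minus replicate 2, x axis) and the EGF change in SYK-WT cells (y axis), both on the log2(FPKM + 1) scale; 27 loci lie outside the axes. Called rises (red) and falls (blue) leave a band around 0 that widens to either side, and PTGS2, STK32B and HCAR1 lie far to the right without a call.

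Single genes show what this spread allows. PTGS2, encoding cyclooxygenase 2, stood at 48.9 and 14.8 FPKM untreated and 73.9 and 63.8 with EGF. Both EGF libraries were higher, yet the change of 1.31 ± 0.44 was not called (adjusted p = 0.061). It was 2.14 and called without SYK-WT replicate 1 (adjusted p = 0.000107) and 0.48 without replicate 2 (adjusted p = 0.0599). In SYK-KO cells PTGS2 stood at 7.58 and 5.37 FPKM untreated and 12.6 and 11.9 FPKM with EGF. STK32B, a kinase of little-known function, stood at 17.9 and 3.38 FPKM untreated and 16.9 and 19.2 with EGF, so replicate 1 matched the EGF libraries and replicate 2 did not (1.07 ± 0.54, adjusted p = 0.183). Its change was 2.12 without replicate 1 and 0.014 without replicate 2. HCAR1, the lactate receptor, stood at 22.2 and 9.03 FPKM untreated and 16.2 and 15.8 with EGF, with the EGF libraries between the untreated ones (0.16 ± 0.31, adjusted p = 0.739). Without SYK-WT replicate 2 its change was -0.45, the opposite sign, and without replicate 1 it was 0.76. MPC1, a subunit of the mitochondrial pyruvate carrier, stood at 117 and 42.8 FPKM untreated and 215 and 219.7 with EGF and was called (1.6 ± 0.38, adjusted p = 0.0183), with a change of 0.89 without SYK-WT replicate 2. MPC1 lost its call with no filter on low values (adjusted p = 0.0522), with only the SYK-WT groups in the fit (0.0727), without SYK-WT EGF replicate 1 (0.0877) and without SYK-WT EGF replicate 2 (0.0921). NPTX1, a secreted pentraxin, stood at 4.77 and 0.90 FPKM untreated and 15.5 and 16 with EGF: its untreated libraries lay far apart, and the rise (2.34 ± 0.41, adjusted p = 0.00604) still held in all 7 fits, at 1.54 without SYK-WT replicate 2. P3H4 and UQCC3 stood at 7.96 and 20.7 FPKM untreated and 7.34 and 8.24 with EGF and at 2.88 and 9.62 FPKM untreated and 2.43 and 2.94 with EGF; replicate 1 lay with the EGF libraries and neither was called. Without replicate 1 they changed by -1.31 and -1.53, and without replicate 2 by -0.029 and -0.079. SNHG25 was listed at 67.2 and 0 FPKM untreated and 0 and 0 with EGF. Of loci with a single symbol and no small RNA, 3 changed by at least 1 on the log2 scale without a call: PTGS2, STK32B and SNHG25, the last by a value that rests on 1 library.

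In the authors' deposited table the same comparison had a q-value below 0.05 for 1843 of the tested loci, 904 higher and 939 lower with EGF. Of the 3238 called loci 1673 were among them with the same direction, and of the 970 loci in all 7 fits 893 were. PTGS2, AREG and MPC1 had q = 0.000583 there. Many other named genes, THBD and MMP11 among them, had this same value, so it does not rank them. STK32B, not called here, also had q = 0.000583, and BTC, called here, had q = 0.0601.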

How the data were processed

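RNA of 8 libraries was sequenced, 2 each of SYK-WT and SYK-KO OVISE cells, untreated or with EGF. The deposited table holds FPKM values per locus and library, made with TopHat, Cufflinks and Cuffdiff 2.2.1.3 on hg19, per the submitters' processing notes, and the authors' q-values for each comparison, which the deposited table gives beside them. FPKM values carry no read counts, so depth is unknown and no count test was run. Of 27757 loci, 27222 got a symbol from RefSeq accessions and 319 from GENCODE alone. The 12112 loci past the filter (1 FPKM or more in 2 or more of the libraries) were fitted as log2(FPKM + 1) with limma 3.58.1 in R 4.3.3 (4 group means, all 8 libraries, variance trend), and p-values were adjusted over all of them by the Benjamini-Hochberg method. The script was tested on simulated data in which a locus had the same spread in all groups. The untreated SYK-WT libraries lay further apart than the others, a setting that this simulation did not cover.

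Genes named are up to 3 with the largest called change in each list and direction and 2 FPKM or more as the mean of the higher group, the 10 largest in each direction outside the lists, the 5 markers, EGFR, SYK and the 10 genes with the largest distance between untreated SYK-WT libraries and 5 FPKM or more as a group mean. Small RNAs and merged loci were left out unless stated. Other list members named in the text were chosen after their values were seen. The members and lists were chosen with earlier results of these data known. Alternatives were other pseudocounts, filters, scalings, weights and sets of libraries. Results for some named genes are not reported here.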

Additional observations from a re-analysis of the deposited data

Results flagged for a closer look

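The response of PLAT, the tissue plasminogen activator gene, differed between the genotypes: its EGF change in SYK-WT cells exceeded that in SYK-KO cells by 2.15 on the log2(FPKM + 1) scale (limma interaction term, adjusted p = 0.00259). Both EGF libraries were above both untreated ones for either genotype, and the smaller rise in SYK-KO cells was itself called (0.43 ± 0.092, adjusted p = 0.0233). It was the locus of 12112 at which this test passed the threshold.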

How the results depend on the processing

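For EGF in SYK-WT cells, the 3238 calls (1777 rises, 1461 falls) became 1254 (737 and 517) when the fit held the SYK-WT groups alone, 1877 (1086 and 791) under quality weights per library, and 1843 (904 and 939) by the q-values of the authors' deposited table. Leaving out 1 library gave 1255 to 5108 calls, 729 to 2651 rises and 510 to 2457 falls; the most of each came without SYK-WT replicate 1, and the fewest calls and falls without SYK-WT EGF replicate 1 and the fewest rises without SYK-WT EGF replicate 2. Median of ratios scaling, chosen after seeing the data, gave 1585 rises and 1584 falls. With the replicate block the calls numbered 3624 (1990 and 1634). The labels give replicate numbers but no shared batch, and the replicate differences of SYK-WT correlated across loci with those of SYK-WT EGF at -0.219, of SYK-KO at 0.161 and of SYK-KO EGF at 0.27. HCAR1 changed by -0.4497 without SYK-WT replicate 2, and leaving out replicate 1 of the same group instead gave 0.7639. The cause of these changes was not tested. With 2 libraries per group and an untreated pair that lay further apart than the others, small changes depend on which libraries enter the fit, and depth is unknown.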
